A study of Bos taurus with 2 samples.

Results

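The 8 genes described here encode ketone body enzymes (BDH1, BDH2, ACAT1, OXCT1 and AACS) and monocarboxylate transporters (SLC16A1, SLC16A3 and SLC16A7). They were chosen by name, and all probes whose transcript accession belongs to one of these symbols were taken, which gave 19 probes. All 8 genes were among the 19554 genes for which a ratio between the groups could be formed.

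Ketone bodies are carried in the blood as acetoacetate and 3-hydroxybutyrate. In the liver, and in ruminants also in the rumen epithelium, synthesis begins with the condensation of acetyl-CoA by thiolase (ACAT1) and leads to acetoacetate, which BDH1 reduces to 3-hydroxybutyrate. Muscle takes ketone bodies and lactate up through proton-coupled SLC16 carriers, and BDH1, OXCT1 and ACAT1 return 3-hydroxybutyrate to acetyl-CoA in its mitochondria. BDH1 and ACAT1 thus work in both directions, whereas OXCT1 marks use.

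Total RNA of the longissimus thoracis muscle was hybridized to 2 one-colour Agilent arrays (Bovine, v2), both on the same slide. Japanese Black cows were fed 60% (LN) or 120% (HN) of their nutritional requirement during gestation, including the period before pregnancy. All were inseminated with male-sorted semen of the same sire, and the fetal muscle was collected at 8.5 months (day 260). Each array held a pool of 4 fetuses, those of lowest BW in LN and those of highest BW in HN, and no group was fed exactly the requirement. Diet, selection by BW and array cannot be told apart, and with 1 array per group there was no replicate check and no test.

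Signals are given as log2 of the quantile-normalized intensity, and differences as log2 LN/HN. A level is compared between the pools for the same probe only, because probes differ in how brightly they bind. Probes printed in several spots gave a standard deviation of 0.085 for the log2 ratio of a single spot (42 probes), or 1.12-fold at 95%, and the probes of one gene differed by a median standard deviation of 0.098. These values cover technical error only. In RNA of whole muscle, fewer cells of a type and less RNA per cell cannot be told apart.

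The change in the 8 genes was uneven. BDH1 was 2.61-fold higher in LN, and SLC16A1 1.40-fold higher, whereas the other 6 genes lay within a log2 ratio of 0.32 in either direction. This limit is the fold threshold that the study used to select genes for its pathway analysis and is called the pathway threshold here. Of the 8 genes, 5 had a positive and 3 a negative ratio, with a median of 0.12, against -0.0033 over all genes. Over all 19554 genes, 9636 ratios were positive and 9906 negative, which is the background for every count of signs given below. Past the pathway threshold, 2 genes were higher and 0 lower, where 8.85% of all genes were higher (1731) and 9.11% lower (1781). Past 2-fold, 1 gene was higher and 0 lower, where 0.711% of all genes were higher and 0.286% lower. With each array scaled to its 75th percentile, the split over all genes became 1191 higher (6.00%) and 2693 lower (13.6%), and counts of 2 and 0 were again obtained for the 8 genes.

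**Figure D1:**
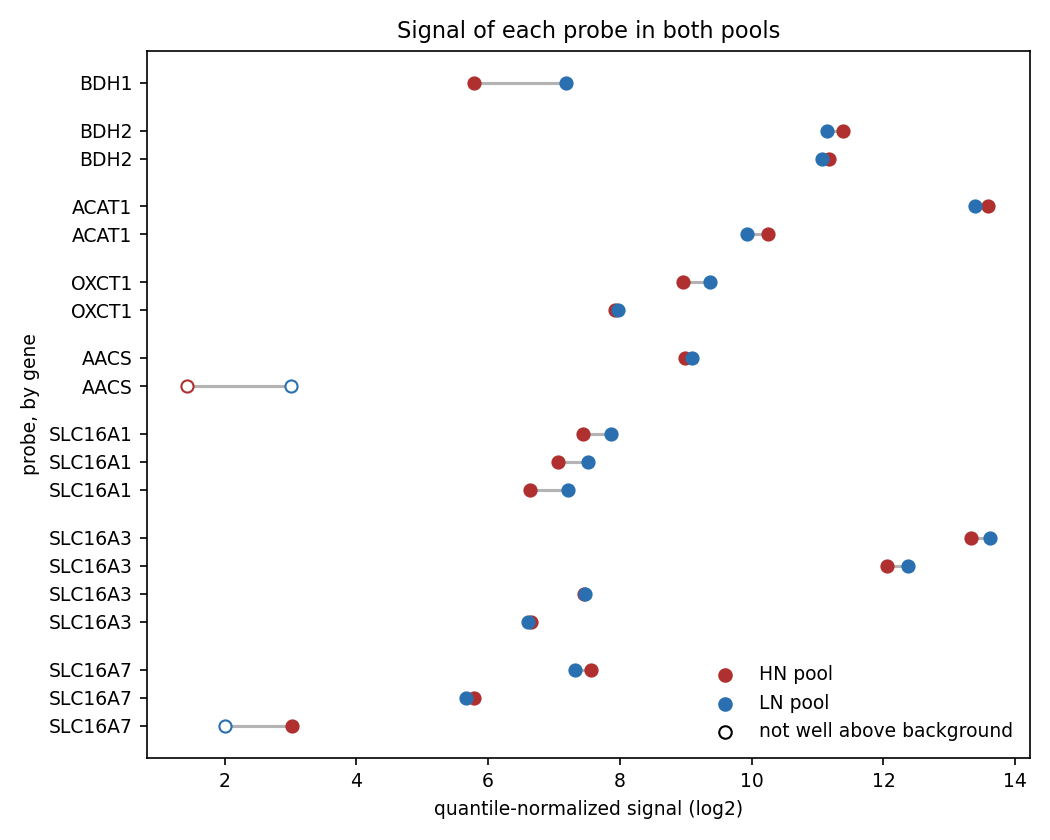
Quantile-normalized log2 signal (horizontal axis) of each of the 19 probes, one row per probe, in the HN pool (red) and the LN pool (blue), with open circles where a probe was not well above background. The BDH1 points lie farthest apart among probes filled in both pools, and all 3 SLC16A1 probes have the LN point to the right of the HN point.

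BDH1 is the dehydrogenase of the inner mitochondrial membrane that interconverts acetoacetate and 3-hydroxybutyrate. Its single probe (accession NM_001034600, Entrez Gene 534090) read 5.79 in HN and 7.17 in LN, a log2 ratio of 1.38. Only 0.194% of all genes had a ratio as high, and BDH1 was 38th from the top. Before normalization, the background-corrected intensity was 55.8 in HN and 145 in LN. The median pixel intensity of the spot was 83.0 in HN against a local background of 26, and 155.5 in LN against 24.5. The scanner software gave an error of 10.3% of the signal in HN and 10.1% in LN, which is 0.21 on the log2 ratio. The difference was therefore far larger than the spot error, but it rests on 1 probe, and no second probe for BDH1 was found among the matched ones. In the normalized values of the authors the ratio was 1.33. With the normexp background correction, which adds an offset of 50 to intensities of this order, the ratio was 0.73, below 2-fold.

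The study also measured BDH1 by real-time PCR, and its primer pair is shown as the sequences of a second assay of this transcript, whose values were not analysed here. The primers, written 5′ to 3′, were designed on NM_001034600.2 and have 23 bases (47.8% GC) and 22 bases (50% GC).
BDH1 forward: taagggtcttcgagaaggaaacg
BDH1 reverse: ccacaaaaggcagaatggtcag

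BDH2, the cytosolic member of the dehydrogenase pair, had ratios below 0. Its brighter probe (NM_001034488, Entrez Gene 515321) read 11.38 in HN and 11.15 in LN, and its second probe 11.17 and 11.07. Both ratios were negative, at -0.23 and -0.10, with a mean of -0.17 ± 0.093 (SD between 2 probes). The 2 dehydrogenases thus had ratios of opposite sign, and both BDH2 probes lay within the pathway threshold.

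ACAT1, the mitochondrial thiolase that forms acetoacetyl-CoA in synthesis and splits it in use, had a negative ratio. Its brighter probe (NM_001046075, Entrez Gene 511082) read 13.59 in HN and 13.39 in LN, and its dimmer probe 10.24 and 9.93. Both probes were lower in LN, by ratios of -0.20 and -0.31, and the mean was -0.26 ± 0.081 (SD, 2 probes), within the pathway threshold.

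OXCT1 transfers CoA from succinyl-CoA to acetoacetate and is the enzyme that commits ketone bodies to oxidation outside the liver. Its probes (NM_001076070, Entrez Gene 535804) disagreed: the brighter one read 8.95 in HN and 9.37 in LN, a ratio of 0.42, and the dimmer one 7.92 and 7.98, a ratio of 0.053. The mean of 0.24 ± 0.26 (SD, 2 probes) was smaller than the spread between the probes. The brighter probe alone would place OXCT1 past the pathway threshold.

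AACS activates acetoacetate in the cytosol, where the product serves lipid and sterol synthesis. The probe that was detected (NM_001163929, Entrez Gene 505842) read 8.99 in HN and 9.09 in LN, a ratio of 0.10, below the 0.167 expected of a single spot at 95%. The other probe was not well above background on either array, with measured values of 1.43 in HN and 3.0 in LN. When it was counted in spite of this, the ratio of AACS rose to 0.84.

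**Figure D2:**
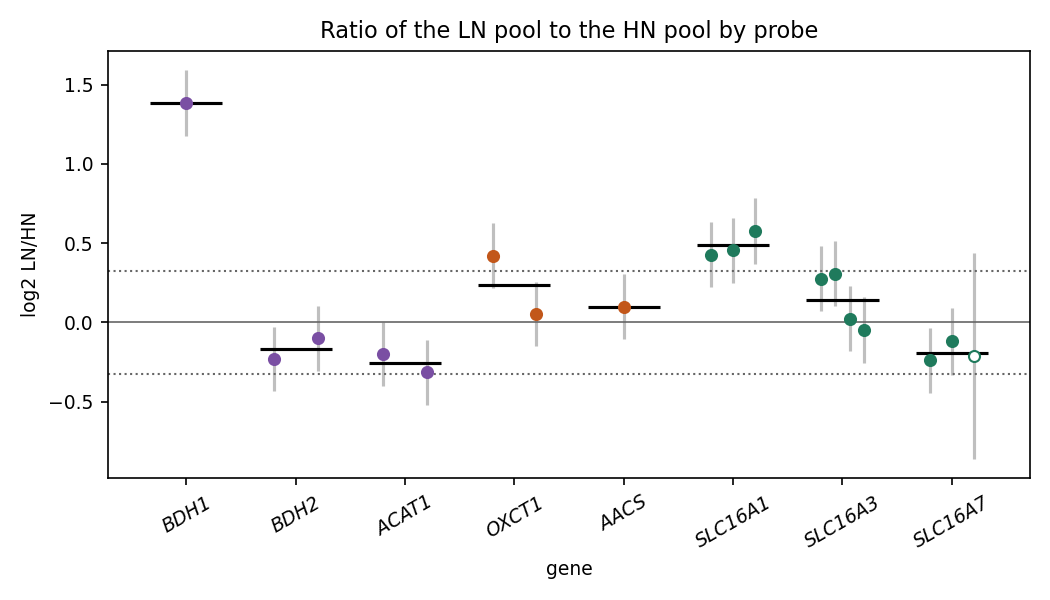
Log2 LN/HN (vertical axis) of each probe with a ratio, by gene, with the gene mean as a black line and the software's error of the ratio as grey bars; purple marks BDH1, BDH2 and ACAT1, orange OXCT1 and AACS, green the carriers, and the dotted lines the pathway threshold. BDH1 stands alone at 1.38, the SLC16A1 probes lie together between 0.43 and 0.58, and the open circle of SLC16A7 is a bound.

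Among the carriers, SLC16A1 (MCT1), which carries lactate, pyruvate and ketone bodies in most tissues, had the highest ratio. Its 3 probes (NM_001037319, Entrez Gene 505775) read 7.43, 7.06 and 6.63 in HN and 7.86, 7.51 and 7.21 in LN. The probes were all higher in LN, by 0.43, 0.46 and 0.58, and their mean of 0.49 ± 0.080 (SD, 3 probes) was several times the spread between them. In all, 4.5% of genes had a ratio as high. SLC16A1 was past the pathway threshold in all 12 alternative settings run for single genes, though only just so under normexp (0.32), where 319 of all genes (1.62%) were past it higher and 386 lower.

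SLC16A3 (MCT4), the carrier that exports lactate from glycolytic fibres, had a ratio that depended on the probe. The brighter pair of its 4 probes (NM_001109980, Entrez Gene 510085) read 13.34 and 12.06 in HN and 13.61 and 12.37 in LN, ratios of 0.28 and 0.31. The dimmer pair read 7.45 and 6.65 in HN and 7.48 and 6.60 in LN, ratios of 0.022 and -0.048. The mean of 0.14 ± 0.18 (SD, 4 probes) was within the spread, and no probe reached the threshold.

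SLC16A7 (MCT2), a carrier of high affinity for pyruvate and ketone bodies, had lower values in LN. Its brightest probe (NM_001076336, Entrez Gene 614573) read 7.56 in HN and 7.32 in LN, and its second 5.78 and 5.66, with ratios of -0.24 and -0.12. The third read 3.03 in HN and was not well above background in LN, where its measured value was 2.01. With the LN side set to the lowest signal called well above background there (2.82), its ratio is a bound of -0.21, and the gene mean was -0.19. With the measured value in its place the gene mean was -0.46, past the pathway threshold.

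Ordered by gene mean, the ratios ran from BDH1 (1.38) through SLC16A1 (0.49), OXCT1 (0.24), SLC16A3 (0.14) and AACS (0.10) to BDH2 (-0.17), SLC16A7 (-0.19) and ACAT1 (-0.26). The mean of SLC16A7 includes a bound, and it was below that of ACAT1 in 6 of 12 alternative settings. The 1.38 of BDH1 lay far above the other 17 probes with a ratio. SLC16A1 and OXCT1 met at the edges, with 0.43 for the lowest SLC16A1 probe and 0.42 for the brighter OXCT1 probe. The means of OXCT1 and SLC16A3 differed by less than the spread between the probes of either. AACS had 1 probe with a ratio and so no such spread, and the lower values of BDH2, SLC16A7 and ACAT1 lay close together, with probes from -0.31 to -0.10. For 5 genes the mean was farther from 0 than 0.167, the limit of a single spot at 95% (BDH1, SLC16A1, OXCT1, SLC16A7 and ACAT1), as it was for 42.3% of all genes. Of the 18 probes with a ratio, 10 were higher and 8 lower in LN, and past the pathway threshold 5 were higher (1 of BDH1, 1 of OXCT1 and 3 of SLC16A1) and 0 lower. Of all 31986 probes with a ratio, 9.11% were past it higher and 9.44% lower.

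**Figure D3:**
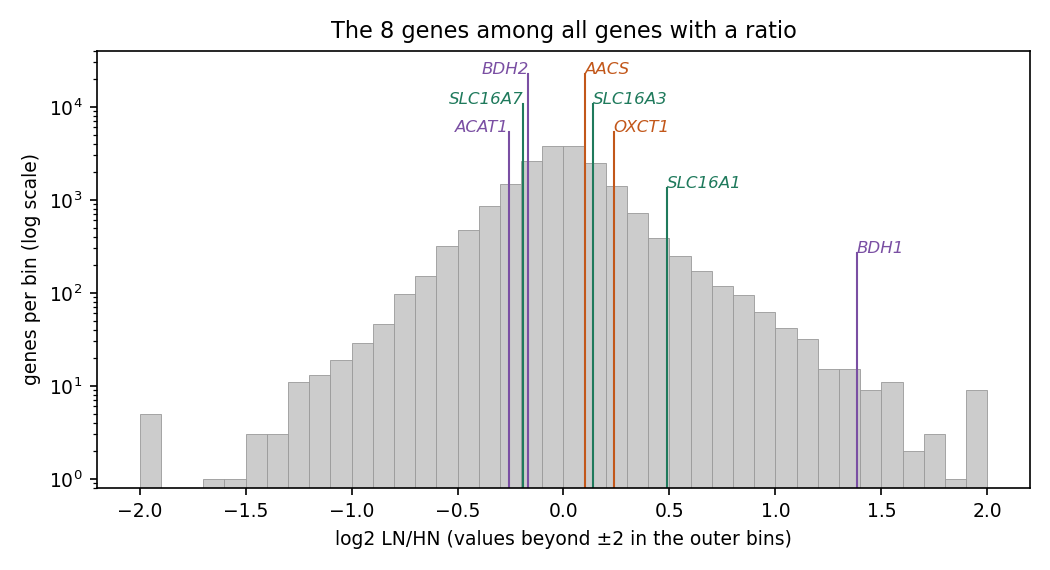
Number of genes (vertical axis, log scale) by log2 LN/HN (horizontal axis, values beyond 2 in the outer bins) for all 19554 genes with a ratio, with coloured lines at the 8 genes. BDH1 at 1.38 lies in the thin right tail, SLC16A1 at 0.49 on the right slope, and the other 6 between -0.26 and 0.24, where most genes lie.

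Of the genes of synthesis alone, HMGCLL1, a lyase that releases acetoacetate, was detected by 1 of 2 probes. It read 3.76 in HN and 4.16 in LN, a ratio of 0.41, past the pathway threshold. Its signal was low, and the ratio passed the threshold in 7 of 12 alternative settings.

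On the side of use, all 3 genes had positive ratios, and none passed the threshold as processed here. OXCT2, the paralog of OXCT1 known from the testis, was detected by 1 of 2 probes, at 4.80 in HN and 4.99 in LN, a ratio of 0.19, beside 0.24 for OXCT1 and 0.10 for AACS. The median of use was 0.19, but it fell to 0.039 under normexp and was 0.38 where undetected probes were counted, and OXCT2 had these same values. BDH1, BDH2 and ACAT1, which act in both directions, had a median of -0.17, and BDH1 was the only one of them above 0.

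The cytosolic genes of acetate and acetoacetyl-CoA on the way to sterols, the route that AACS feeds, had positive ratios (3 of 3 described, median 0.43). ACAT2, the cytosolic thiolase, was 0.62 higher, with 0.50 to 0.84 over its 3 probes, the highest being that of its dimmest probe (2.87 in HN and 3.71 in LN). HMGCS1, which uses acetoacetyl-CoA in the sterol route, was 0.43 higher, with 0.38 to 0.48 over its 3 probes. Under normexp, ACAT2 was at 0.22 and HMGCS1 at 0.24, within the threshold, and both were past it in the other 11 settings. ACSS2, which activates acetate, stood at 0.17, within the threshold. The cytosolic thiolase thus stood at 0.62 beside -0.26 for the mitochondrial thiolase ACAT1.

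**Figure D4:**
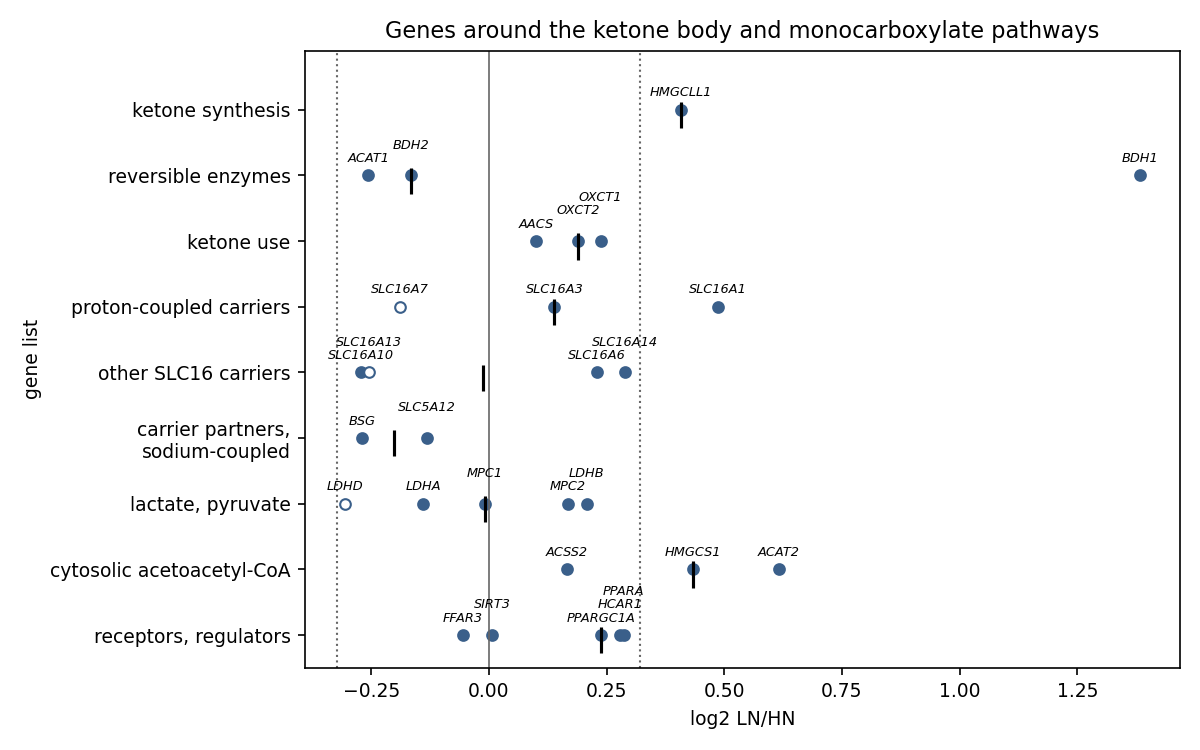
Log2 LN/HN (horizontal axis) of each gene with a ratio in 9 groups of genes around the 2 pathways, one row per group, with the group median as a black tick, the pathway threshold as dotted lines and open circles for genes that include a bound. BDH1 lies farthest right at 1.38, ACAT2, SLC16A1, HMGCS1 and HMGCLL1 also lie beyond the right dotted line, and no gene lies beyond the left one.

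The partners and relatives of the carriers had lower or mixed values. BSG (basigin), the chaperone that brings MCT1 and MCT4 to the plasma membrane, had a ratio of -0.27, with -0.41 to -0.18 over its 4 probes. The sodium-coupled carrier SLC5A12 stood at -0.13, but its probes disagreed, at 0.038 for the brighter and -0.30 for the dimmer one, and SLC5A8 was not detected. Of 9 other SLC16 genes examined, 5 had matched probes and 4 had a ratio: SLC16A14 (0.29), SLC16A6 (0.23), SLC16A13 (-0.26) and SLC16A10 (-0.27). None of them passed the threshold, and their median was -0.013, though SLC16A14 passed it in the authors' values (0.33). The value of SLC16A13 came from 1 probe with a bound (-0.87), its other probes being at 0.0068 and 0.10. The probes of SLC16A10 disagreed, at -0.73 and 0.19. In the authors' values they were at -0.87 and 0.19, with a mean past the threshold lower. SLC16A4 was not detected, and SLC16A8, a proton-coupled carrier, SLC16A5, SLC16A9, SLC16A11, SLC16A12 and the chaperone EMB (embigin) had no matched probe.

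Of the genes that handle the cargo of these carriers, those measured in both pools lay within the threshold. LDHA, the lactate dehydrogenase subunit of glycolytic muscle, had a ratio of -0.14, and LDHB, the subunit of oxidative tissue, 0.21, with 0.14 to 0.27 over its 4 probes. LDHD, dim in LN, stood at a bound of -0.31, and at -0.40, past the threshold, with its measured value. It was past the threshold lower in 4 of 10 settings, down to -0.51 at the 75th percentile. Where undetected probes were counted it stood at 0.0038. The mitochondrial pyruvate carrier subunits MPC1 and MPC2 stood at -0.0093 and 0.17. Of these 5 genes, 2 had positive and 3 negative ratios. Among receptors and regulators of ketone and lactate metabolism, 4 of 5 had positive ratios with a median of 0.24, and none passed the threshold. They were the lactate receptor HCAR1 (0.28, from a dim probe that gave 0.12 in the authors' values), the fatty acid sensor PPARA (0.29), its coactivator PPARGC1A (0.24) and the mitochondrial deacetylase SIRT3 (0.0069), whereas the short-chain fatty acid receptor FFAR3 stood at -0.055.

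Markers of skeletal muscle and of other cell types were both detected, and some of them differed between the pools. All 9 skeletal muscle markers on the array were detected, with a summed signal of 21.30 in HN and 21.23 in LN (log2) and a median ratio of -0.14. Quantile normalization gives spots of equal rank the same value on both arrays. Sums led by the brightest spots are thereby held close, and they do not measure muscle content. TNNC2 read 18.35 in both pools, from 342316 in HN and 326693 in LN before normalization. MYH8 was higher (0.35) and MB lower (-0.37). The MYH8 probes disagreed, at 0.041 for the brightest and 0.39 and 0.61 for the dimmer ones. The 5 slow fibre markers had a median of -0.054 (sum 20.78 and 20.73) and the 5 fast fibre markers -0.22 (20.42 and 20.31). Among the fast markers, ACTN3 (-0.60) and MYH1 (-0.50, with -0.81 to -0.071 over its probes) were lower. The fast myosin MYH2 stood at 0.028 and TNNC2 at 0. Markers of liver, where ketone bodies are made, had a median of -0.040 over 7 genes (12.08 and 12.07), with 3 positive and 4 negative ratios. ALB (-1.0, including bounds for 2 of its 4 probes), TF (-0.66) and CPS1 (-0.43, from 1 of 3 probes) were lower. None was past the pathway threshold higher, and the positive ratios were those of SERPINA1 (0.23), FGB (0.19) and APOA1 (0.045). The 4 adipocyte markers with a ratio had a median of 0.041 (9.76 and 9.86), with FABP4 at 0.39, and LEP was not detected. The 4 erythroid markers, whose cells carry MCT1, had a median of -0.094 (14.08 and 14.07), while SLC4A1 and HEMGN were not detected.

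Macrophage and neutrophil markers had a median of -0.049 over 9 genes (12.59 and 12.44), with 4 positive and 5 negative ratios. They ranged from CD68 at -0.35 to S100A8 (1.39), S100A9 (1.246) and MPO (at least 3.11), which were past 2-fold higher. The neutrophil markers did not all rise, as ELANE stood at -0.13. Endothelial markers had a median of -0.21 over 6 genes (15.02 and 14.65), with CLDN5 at -0.39. The part of these cell types in the ratios of BDH1, SLC16A1 and the other 6 genes was not tested.

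**Figure D5:**
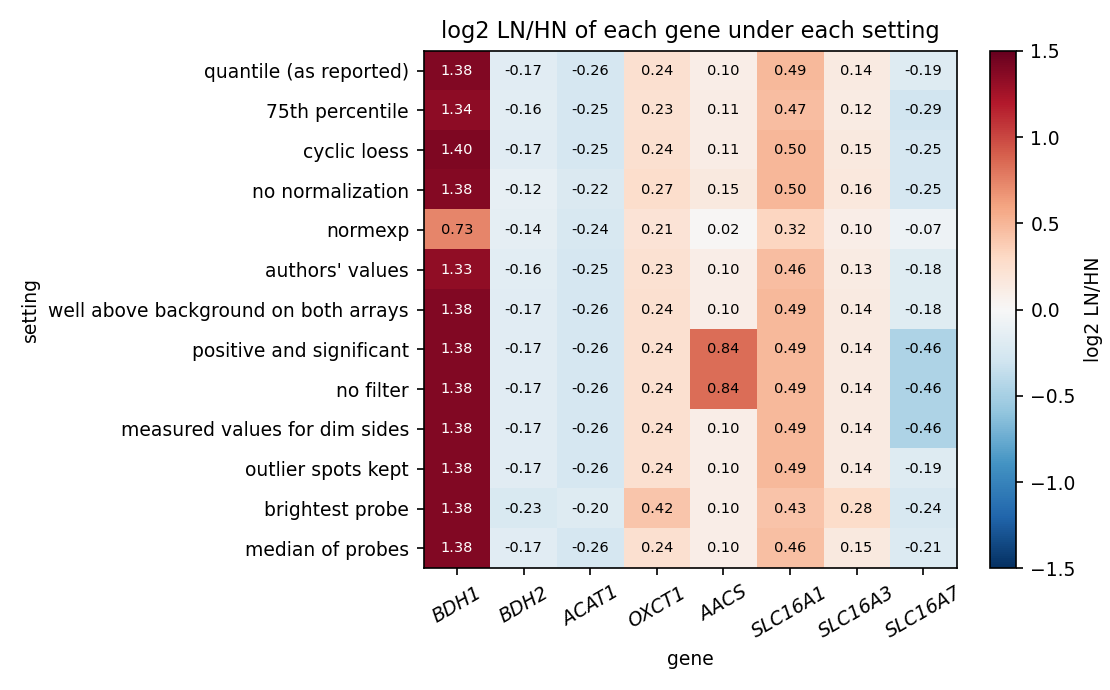
Log2 LN/HN of each of the 8 genes (columns, colour and printed value) as reported and under 12 alternative ways of processing the arrays (rows). BDH1 is at 1.33 to 1.40 except for 0.73 under normexp, SLC16A1 at 0.32 to 0.50, AACS reaches 0.84 where probes that were not detected are counted, and SLC16A7 -0.46 in the 3 settings that take its dim probe at the measured value.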

How the data were processed

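RNA of 4 fetuses per group was pooled by the authors and hybridized to 1 array per group. The deposited intensity of each spot was extracted by the authors with Agilent Feature Extraction 11.0.1.1, background-corrected, detrended and not normalized between arrays. The authors' normalized values, whose scale is not stated and which run as log2 values do, cover 30027 probes.

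Here, log2 intensities of 43803 non-control spots were quantile-normalized with limma 3.58.1 in R 4.3.3, since the methods name the quantile method. Spots with an outlier flag (13) were removed. Of 43652 probes, 32775 were detected, that is well above background on at least 1 array (74.5% of spots on HN and 70.9% on LN), and 30639 on both. No spot was saturated. Where a probe was dim on 1 array, that side was set to the lowest signal called there (log2 2.27 on HN, 2.82 on LN) or its own value if higher, and no ratio was formed if the bright side did not exceed it. A gene is the mean of its detected probes. Gene symbols came from the RefSeq gene table (assembly ARS-UCD2.0, used for names only), which held the accession of 26742 probes. The array design refers to another assembly, so no coordinates are given. Python 3.11.15, numpy 2.4.6, pandas 2.3.3 and matplotlib 3.10.9 were used, and the steps were tested on simulated data.

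The values of some genes around these pathways, and with them the planned median of synthesis minus use and its alternative with shared enzymes, are not reported here. All 8 genes and the remaining genes of the synthesis, use and carrier groups are named. Genes of the other groups are named where they passed the pathway threshold (log2 0.32) or define the group. The groups were written from general knowledge, and the genes and groups were chosen with earlier results of these data known. The number of arrays limits the precision.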

Additional observations from a re-analysis of the deposited data

How the results depend on the processing

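Of 13 settings, 12 were planned and 1, leaving out BDH1, was chosen after seeing the data. A planned naming of probes by a gene name column was not run, as the scanner files used here have none, and normexp was run on the median pixel signal. The median of the 8 genes ranged from 0.061 to 0.19, and no gene among the 8 changed sign. The count past the pathway threshold higher was 3 with the filter of positive and significant signal and without a filter (AACS added) and with the brightest probe (OXCT1 added), and 2 in the other planned settings. Of all genes, 13.1% were then higher and 15.9% lower with positive and significant signal, 12.2% and 13.4% without a filter, and 8.74% and 9.20% with the brightest probe. Without BDH1 the count past the pathway threshold higher was 1. The count lower was 1 (SLC16A7) with dim sides at measured values, with the filter of positive and significant signal, and without a filter. With measured dim sides, 8.64% of all genes were higher and 11.6% lower. BDH1 fell to 0.73 under normexp and was 1.33 to 1.40 in the others. The median of use ranged from 0.039 to 0.38 and passed the threshold in 2 settings, as did OXCT2. HMGCLL1 was past the pathway threshold in 7 of 12 settings. No paired analysis was possible because each group has 1 array. Low signal limits HMGCLL1, OXCT2, HCAR1, PPARA, LDHD, ACAT2, the other SLC16 carriers with a ratio and a probe each of AACS and SLC16A7.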
